A study of Mus musculus with 9 samples.

Results

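The genes described here are 10 genes that mark the projection neurons of the striatum: Ppp1r1b, Rgs9, Pde10a, Adcy5, Gng7, Rasd2, Bcl11b, Rarb, Scn4b and Actn2. They are 10 of the 19012 protein-coding genes whose bodies could be tested, out of 21631 protein-coding genes in the RefSeq table. They were selected on their measured methylation, as genes with higher levels in a pair of the Susceptible libraries, so their gene body levels and the direction of the group difference are the values that selected them and are given as a description from which no test result is read.

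DNA from punches of the nucleus accumbens, a part of the ventral striatum, was read by whole-genome bisulfite sequencing. The mice were C57BL/6J males 8 weeks old, and the 9 libraries fall into 5 labelled Control (numbered 2, 3, 4, 5 and 8) and 4 labelled Susceptible (numbered 2, 3, 6 and 7). The stressor named for all of them was 10 daily defeats by a CD1 aggressor, a larger mouse screened for aggression, and neither the handling of the Control mice nor the scoring of susceptibility is stated in the labels. A level is the percentage of calls read as C, over the CpGs of a region in 1 library, and differences between levels are in percentage points.

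Medium spiny projection neurons make up most neurons of the striatum and carry its output. Their response to dopamine runs through cyclic AMP: receptors act on a G protein, adenylyl cyclase makes cyclic AMP, phosphodiesterases break it down, and DARPP-32 relays the signal to protein phosphatase. In neurons, active genes often have an unmethylated CpG-rich start and, in the cell type that uses them, reduced methylation through the transcribed body. A punch holds many cell types, so a level is an average over cells. Fewer cells of a type and a different methylation level within those cells cannot be told apart here, and bisulfite does not tell methylated from hydroxymethylated cytosine.

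Susceptible 6 and Susceptible 7 are the libraries in which the 10 gene bodies were high. Each exceeded all 5 Control libraries in 10 of 10 genes, while Susceptible 2 and Susceptible 3 lay within the Control range in 10 of 10. Relative to the median of the 9 libraries, the median deviation over the 10 genes was 7.07 points in Susceptible 6 and 8.52 points in Susceptible 7, against -0.28 in Susceptible 2, -1.47 in Susceptible 3 and -2.53 to 1.23 in the Control libraries. Over all 19012 genes the same deviations were 0.276 for Susceptible 6 and -0.977 for Susceptible 7. Susceptible 7 thus stood above the Control libraries in these genes, while its typical gene lay below the median of the 9 libraries. The group differences of the 10 gene bodies thus have Susceptible 6 and 7 above Control and the other 2 Susceptible libraries within its range, and the values of each library are given beside those of the groups. In an added comparison without Susceptible 6 and Susceptible 7, the median difference between Susceptible and Control over the 10 genes went from 4.04 to -0.14 points, with 4 of 10 genes above Control on average.

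Depth over the 10 genes overlapped between the groups. Listed calls ran from 313475624 to 570984634 per library, and the overall level on the autosomes and X from 74.6% in Susceptible 7 to 77.1% in Control 5. Of every 1000000 listed calls, the 10 gene bodies held 983, 912, 966, 928 and 938 in Control 2, 3, 4, 5 and 8. In Susceptible 2, 3, 6 and 7 they held 948, 972, 980 and 1005. Averages were 945 ± 28.7 (SD, n = 5) and 976 ± 23.3 (SD, n = 4), and an exact two-sided permutation test over the libraries gave p = 0.127, where 0.00794 is the smallest p this design allows. Control 5 had the fewest calls and was the highest library in 28.5% of all gene bodies, and Control 8 in 18.9%, so a high value in 1 of those libraries is common across the genome.

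The first members act on cyclic AMP and G proteins. Ppp1r1b, which encodes DARPP-32, lies at chr11:98348406-98357796 (build GRCm38, as all coordinates here) and had the lowest body levels of the set. Its Control levels were 24.7, 29.6, 31.7, 26.3 and 27.4% in libraries 2, 3, 4, 5 and 8. The Susceptible levels were 26.3, 26.9, 41.8 and 42.4% in libraries 2, 3, 6 and 7. Susceptible 6 and 7 stood 10.1 points or more above the 7 others, the widest separation among the 10 genes, while those 7 spanned 6.98 points. The long noncoding RNA gene 1700003D09Rik overlaps it from position 98350718 onward, so methylation there belongs to either gene.

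Rgs9 encodes a regulator that ends G protein signals at dopamine receptors (chr11:109225348-109298181). Control levels were 68.8, 71.5, 72.0, 70.0 and 68.4%. Susceptible levels were 71.1, 69.4, 78.3 and 79.5%, so the high pair began 6.31 points above the highest other library. Adcy5 encodes the main adenylyl cyclase of the striatum (chr16:35154494-35305743). It read 53.9, 55.0, 57.5, 54.2 and 51.6% in Control and 56.0, 53.0, 66.0 and 69.8% in Susceptible. Its range over libraries, 18.2 points, was the widest of the set, against a median range of 8.39 points over all genes. The median range of the 10 genes was 11.2 points, and that of Rarb, 7.48 points, lay below the median over all genes.

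Pde10a encodes a phosphodiesterase concentrated in striatal projection neurons (chr17:8525187-8986648). The Control libraries read 64.4, 67.02, 68.0, 66.9 and 67.1%. The Susceptible libraries read 66.9, 65.4, 75.3 and 75.6%, and the gap above the other 7 was 7.35 points. Gng7 encodes the G protein gamma subunit that pairs with the striatal stimulatory G protein (chr10:80948624-81014925). Its levels were 49.1, 51.6, 53.0, 49.5 and 50.5% in Control and 50.7, 52.3, 58.5 and 60.3% in Susceptible. As in Pde10a, the 7 other libraries overlapped fully and the pair stood 5.45 points clear.

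Rasd2 encodes Rhes, a small GTP-binding protein of the striatum (chr8:75213944-75224113). Here the separation was small: Control read 58.9, 61.9, 63.8, 65.0 and 56.7% and Susceptible 64.8, 58.8, 66.4 and 67.2%. Susceptible 6 exceeded Control 5 by 1.33 points, less than the 8.36 points that the 7 other libraries spanned and within the Wilson interval of Control 5, whose half-width of 1.55 points was the largest of any body level. Intervals are at 95% and cover counting error only.

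The transcription factors differed in how far the libraries parted. Bcl11b encodes CTIP2, a factor needed for the differentiation of medium spiny neurons (chr12:107910403-108004145). Its body read 49.9, 52.4, 54.5, 52.8 and 48.9% in Control and 50.4, 51.8, 58.2 and 62.2% in Susceptible. The pair stood 3.66 points clear, less than the 5.61 points spanned by the others. Rarb encodes retinoic acid receptor beta (chr14:16430839-17082331), the longest gene of the set. Its body read 76.1, 76.8, 78.5, 75.2 and 75.2% in Control and 75.9, 76.3, 80.8 and 82.7% in Susceptible. The gap was 2.31 points over the whole gene, a value that changes when the gene is divided at its start, as described further on.

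Scn4b encodes an auxiliary subunit of voltage-gated sodium channels (chr9:45138624-45154155). It read 39.0, 43.8, 41.4, 42.8 and 42.0% in Control and 39.9, 40.4, 52.0 and 47.3% in Susceptible. Actn2 encodes an alpha-actinin that cross-links actin at synapses (chr13:12269426-12340732). It read 80.2, 81.1, 79.9, 80.7 and 76.6% in Control and 80.3, 79.0, 85.7 and 82.8% in Susceptible. In these genes Susceptible 6 was the highest library, whereas Susceptible 7 was the highest in the other 8, and the gaps above the remaining libraries were 3.52 and 1.76 points.

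**Figure D1:**
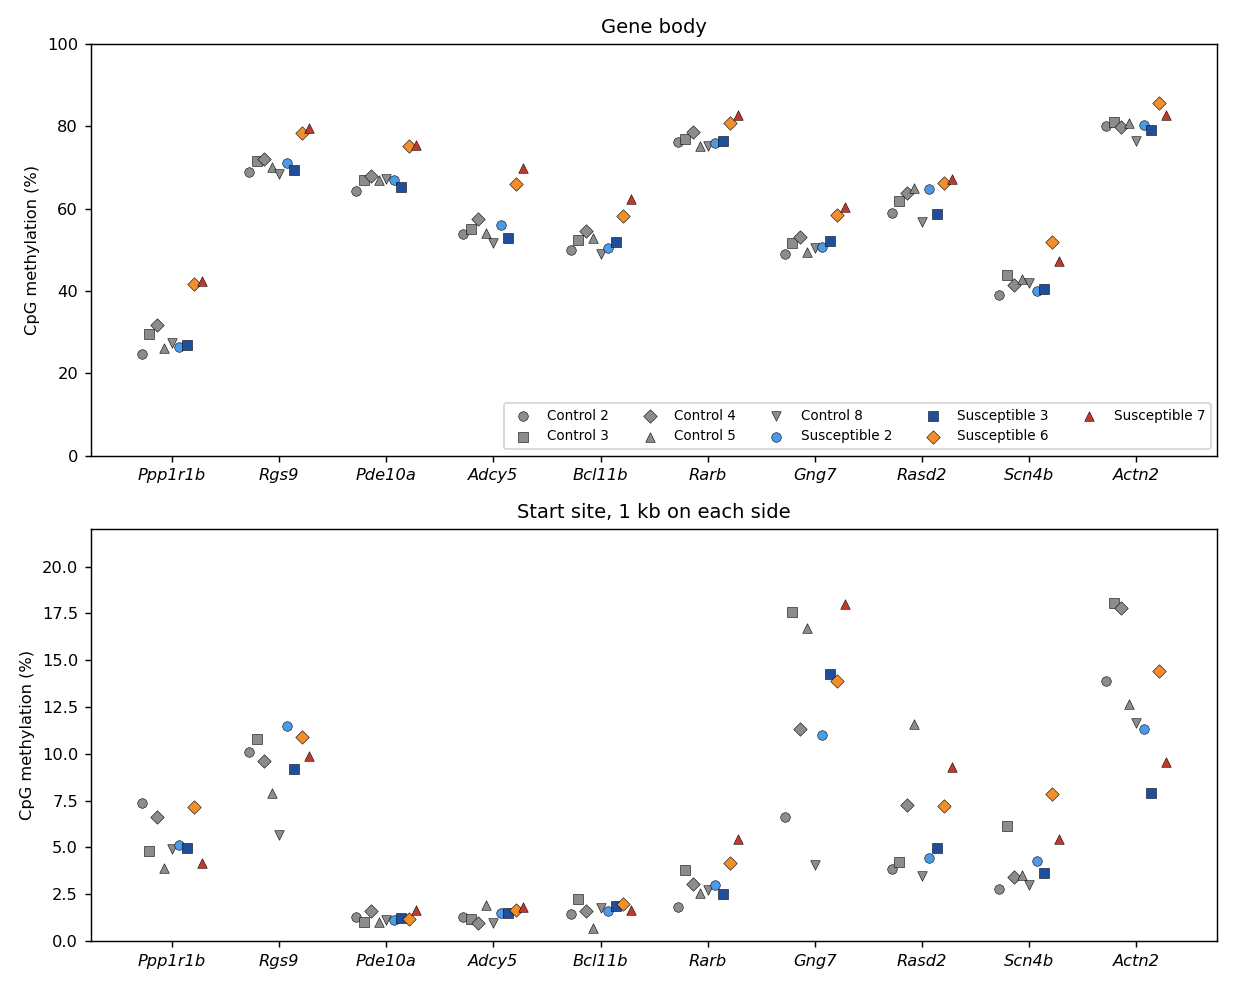
CpG methylation (percent) of the 10 genes in each library, over gene bodies (top) and within 1 kb of the start (bottom, axis to 22%); each point is 1 library, grey for Control. In the bodies Susceptible 6 and 7 are the top pair in 10 of 10 genes, while at the starts all levels are at or below 18.1% and the libraries mix.

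The pattern appeared on each strand read alone in most of the genes. With forward-strand cytosines only, Susceptible 6 and Susceptible 7 were each among the highest pair of libraries in 9 of 10 genes. With the reverse strand they were so in 10 and 8 genes. On the forward strand Control 5 was highest in Rasd2 and second in Actn2. On the reverse strand Control 2 was second in Rasd2 and Control 3 in Scn4b. The members shared no single size or level. Body lengths ran from 9391 bp in Ppp1r1b to 651493 bp in Rarb, against a median of 21288 bp over all genes, and CpG density from 4.24 per kb in Rarb to 20.7 per kb in Ppp1r1b, against a median of 11.3. Median levels ran from 27.4% in Ppp1r1b to 80.3% in Actn2, against 71.3% for the median gene, and 8 of the 10 lay below that.

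The model fitted over all gene bodies called none between Control and Susceptible, 0% at an adjusted p under 0.05, with 982 genes under 0.05 before adjustment. A limma fit to logit levels also called 0, with 885 genes under 0.05 before adjustment. At the unadjusted threshold 1 of the 10 members passed, Gng7, against a background of 5.17%. No member had every Susceptible library above every Control library, or below, where 0.463% and 1.14% of all genes did. Since the members were selected on this contrast, nothing is read from these counts.

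Within 1 kb of the starts of these genes the range over the 9 libraries had a median of 4.35 points, against 11.2 in the bodies. Susceptible 6 and 7 were the highest pair there in 1 of the 10, Rarb. The gene depended on the window. Within 500 bp Rarb was highest in Control 8 and then Susceptible 2. Within 2000 bp the pair was on top in Pde10a and Adcy5, and Control 4 was second in Rarb. Methylation does not measure expression, so whether these genes were expressed in the punches, as the tissue label implies, was not checked. The median level at their starts was 4.28%, against 8.54% over all genes tested. Within 1 kb on each side of the start, Pde10a read 1.29, 0.985, 1.58, 1.02 and 1.12% in Control and 1.11, 1.24, 1.17 and 1.65% in Susceptible. Adcy5 read 1.30, 1.17, 0.94, 1.94 and 0.962% in Control and 1.51, 1.504, 1.65 and 1.83% in Susceptible. Both genes were close to unmethylated in all 9 libraries, and the groups overlapped. Bcl11b ranged from 0.679 to 2.21% and Rarb from 1.81 to 5.44%, and in Rarb Susceptible 7 and Susceptible 6 were the highest pair. Ppp1r1b, for which the CpG-richer end of the gene was taken as its start, ranged from 3.91 to 7.37%, with Control 2 highest. Rgs9 ranged from 5.63 to 11.5%, Rasd2 from 3.45 to 11.6% and Scn4b from 2.80 to 7.88%.

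Gng7 and Actn2 had the most methylated starts. Gng7 read 6.63, 17.6, 11.3, 16.7 and 4.08% in Control and 10.98, 14.3, 13.9 and 18.0% in Susceptible, so the Control libraries alone spanned nearly the whole range. Actn2 went the other way from its body: Control read 13.9, 18.1, 17.8, 12.7 and 11.6% and Susceptible 11.4, 7.92, 14.4 and 9.56%, a difference of -4.01 points. Its size varied with the window, at -0.942 points within 500 bp, where Control 5 was highest at 5.71%, and -7.42 within 2000 bp. The Susceptible mean within 1 kb was higher at 8 of the 10 starts, by a median of 0.384 points over the 10, where 48.4% of all starts were higher. The window mattered. Within 500 bp the differences ran from -0.942 (Actn2) to 1.35 (Gng7) and were also negative in Rgs9, Pde10a and Bcl11b. Within 2000 bp they ran from -7.42 (Actn2) to 4.36 (Gng7) and were also negative in Bcl11b. Within 1 kb Susceptible 6 deviated from the 9-library median by a median of 1.11 points and lay below it at 0 of the 10 starts. Susceptible 7 deviated by 0.402. Over all 19386 starts the same medians were 0 for Susceptible 6 and -0.103 for Susceptible 7. Susceptible 6 and Susceptible 7 each lay above the Control range at 3 of 10 starts, against 10 of 10 bodies. The shares of all starts for these counts were not taken, so nothing is read from them. No start was called, 0% of 19386 tested, with 942 genes (4.86%) and none of the members at an unadjusted p under 0.05, and limma called 0 with 752 at that level. The largest Wilson half-width at a start was 3.48 points, for Gng7 in Control 5.

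Pde10a and Gng7 each have another start listed by RefSeq further inside the gene, which allows a CpG-rich and a CpG-poor start of the same gene to be set side by side. The windows below run from 250 bases before to 50 bases after the start, read along the gene from 5′ to 3′, with CG dinucleotides in capitals. They are RefSeq sequences of GRCm38, and 9 of the 10 members have an entry. The first Pde10a start, the inner Pde10a start, the first Gng7 start and the inner Gng7 start are shown for that contrast, and Adcy5 because it has the most CG dinucleotides of the listed members.
Pde10a first start, chr17:8801495-8801794, plus strand: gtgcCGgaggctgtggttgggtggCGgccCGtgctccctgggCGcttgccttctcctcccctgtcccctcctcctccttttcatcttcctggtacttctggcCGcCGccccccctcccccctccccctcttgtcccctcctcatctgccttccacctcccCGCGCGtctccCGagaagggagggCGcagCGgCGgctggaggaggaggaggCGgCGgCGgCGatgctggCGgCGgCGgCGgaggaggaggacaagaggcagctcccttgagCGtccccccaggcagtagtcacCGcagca
Pde10a inner start, chr17:8849735-8850034, plus strand: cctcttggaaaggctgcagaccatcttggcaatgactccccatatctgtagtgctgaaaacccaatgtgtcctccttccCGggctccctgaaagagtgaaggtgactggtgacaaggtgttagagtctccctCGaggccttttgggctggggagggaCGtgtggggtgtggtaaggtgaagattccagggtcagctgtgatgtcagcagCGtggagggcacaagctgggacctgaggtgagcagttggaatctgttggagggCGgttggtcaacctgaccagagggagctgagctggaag
Gng7 first start, chr10:81014876-81015175, minus strand: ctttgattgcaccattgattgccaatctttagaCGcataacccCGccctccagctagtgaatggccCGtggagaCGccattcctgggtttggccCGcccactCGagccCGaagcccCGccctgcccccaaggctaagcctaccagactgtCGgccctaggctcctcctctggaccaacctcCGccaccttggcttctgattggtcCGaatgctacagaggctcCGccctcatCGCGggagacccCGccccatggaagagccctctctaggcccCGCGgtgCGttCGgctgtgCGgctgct
Gng7 inner start, chr10:81001316-81001615, minus strand: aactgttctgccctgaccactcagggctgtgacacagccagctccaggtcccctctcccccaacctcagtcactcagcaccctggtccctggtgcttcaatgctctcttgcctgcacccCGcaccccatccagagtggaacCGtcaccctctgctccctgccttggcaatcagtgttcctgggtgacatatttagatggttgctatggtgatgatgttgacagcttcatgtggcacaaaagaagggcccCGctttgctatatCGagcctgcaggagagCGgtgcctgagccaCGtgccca
Adcy5 start, chr16:35154614-35154913, plus strand: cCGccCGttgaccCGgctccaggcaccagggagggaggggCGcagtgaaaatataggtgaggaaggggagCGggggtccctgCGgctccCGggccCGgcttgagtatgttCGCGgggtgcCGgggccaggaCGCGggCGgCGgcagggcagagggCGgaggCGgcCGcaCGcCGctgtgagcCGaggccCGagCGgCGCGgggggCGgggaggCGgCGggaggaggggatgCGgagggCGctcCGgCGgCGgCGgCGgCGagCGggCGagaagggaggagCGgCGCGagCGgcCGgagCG

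The first Pde10a window holds 23 CG dinucleotides and the inner one 5, the first Gng7 window 20 and the inner one 6, and the Adcy5 window 44. The median over 32851 listed windows of this length is 7, and 94.6% hold at least 1. Around the inner Pde10a start, 1 kb on each side, the Control libraries read 58.3, 57.4, 61.6, 64.7 and 58.9%. The Susceptible libraries read 64.6, 57.3, 77.4 and 87.5%. Within 1 kb of the CpG-poor start, Susceptible 6 and 7 were thus on top, as in the body. The same distance around the CpG-rich start of that gene read 0.985 to 1.65%. In the printed inner window itself, on as few as 4 CpGs, Susceptible 6 was highest at 86.6%. Susceptible 7 read 75.0% there, below Control 3 (78.4%), Control 4 (76.9%) and Susceptible 2 (75.5%). The printed first window held as few as 1 CpG and 15 calls in a library. Around the inner Gng7 start the levels were 37.0, 37.3, 39.7, 26.1 and 25.6% in Control and 38.6, 37.3, 47.2 and 49.2% in Susceptible. There too Susceptible 6 and 7 were the highest pair, which they were not at the first Gng7 start. In the printed inner Gng7 window they were also the highest pair, at 28.3 and 33.7%. The printed first Gng7 window, on as few as 9 CpGs, read 0 to 0.855% in Control and 3.17 to 5.36% in Susceptible. Its CpG 68 bases before the start read 9.30 to 21.9% in Susceptible and 0 to 8.82% in Control. Within 500 bp of that start Control 5 (18.9%) and Control 3 (11.5%) were the highest libraries.

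Along the genes, the libraries parted after the start. RefSeq places the bounds of Pde10a and Rarb far upstream of the outermost start in the promoter table, so those bounds hold 277 and 507 kb before that start. Those stretches may belong to other transcripts of the same genes, which was not tested, so before the start here means only before the start in that table. In Pde10a, sequence more than 1 kb before the start read 80.1, 81.5, 79.4, 79.95 and 81.0% in Control and 80.7, 80.4, 82.7 and 80.1% in Susceptible. The libraries overlapped, and Susceptible 7 was below Control 3 and Control 8. More than 1 kb after the start the gene read 54.7, 57.9, 60.8, 58.4 and 57.5% in Control and 58.9, 55.8, 75.2 and 77.8% in Susceptible. The gap between the pair and the 7 others, 14.4 points on this side, was the widest in any of the 10 genes, and the difference between group means was 9.05 points after the start and 0.574 before it.

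In blocks of 10 kb, Susceptible 6 and 7 were both above the 7 others in 18 of 18 Pde10a blocks wholly after the start, in the block that holds it, and in 4 of 28 wholly before it. Over the autosomes and X, 2.62% of 240332 such blocks had that order. The widest separation was 20.4 points, in the block 73.3 kb after the start (chr17:8870001-8880000). Its Control levels were 55.7, 58.9, 57.1, 54.4 and 52.0%, and its Susceptible levels 58.2, 51.8, 79.3 and 81.1%. The first block before the start, at 6.75 kb, read 71.3 to 78.8% over the libraries, with Susceptible 6 second to Control 3.

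Rarb was divided in a similar way but less sharply. Before its start the levels were 82.5, 82.8, 84.1, 81.4 and 81.4% in Control and 82.2, 82.6, 85.7 and 86.1% in Susceptible, a gap of 1.54 points. After it they were 69.8, 70.6, 72.4, 68.5 and 69.5% in Control and 68.7, 69.8, 79.7 and 82.4% in Susceptible, a gap of 7.27 points. The pair was on top in 10 of 14 blocks of 10 kb after the start and in 5 of 51 before it. Over all 10 genes, 234 of 654 tiles of 1 kb beyond 1 kb after the start (35.8%) had Susceptible 6 and 7 on top, against 16 of 305 tiles (5.25%) inside the bounds but before it, of which 192 belong to Pde10a and 112 to Rarb.

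Adcy5 showed the same order throughout. In 16 of 16 blocks of 10 kb, from the start to the end of the gene, Susceptible 6 and 7 exceeded the 7 others. The widest separation was 15.0 points, 60.1 kb after the start (chr16:35210001-35220000), where Control read 52.0, 54.6, 55.1, 58.2 and 59.2% and Susceptible 57.95, 52.4, 74.1 and 78.6%. Bcl11b alternated: the order held in 9 of 19 blocks of 5 kb, with no run longer than 4 blocks, and was widest, at 9.69 points, 60.9 kb after the start. Rgs9 held it in 8 of 15 blocks. Over the autosomes and X, 2.59% of 401766 blocks of 5 kb had that order.

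Gng7 held the order in 8 of 13 blocks of 5 kb, widest in the block that contains the inner start (chr10:81000001-81005000). There Control read 38.1, 39.4, 41.6, 32.3 and 32.4% and Susceptible 39.7, 43.0, 51.3 and 57.2%. Actn2 held it in 5 of 16 blocks. The short genes were read tile by tile: Ppp1r1b held it in 6 of 9 tiles of 1 kb, Scn4b in 2 of 15 and Rasd2 in 0 of 8. In the Scn4b tile 1.88 kb after the start (chr9:45140001-45141000), Control read 53.0, 59.3, 61.6, 60.0 and 65.5% and Susceptible 56.1, 52.1, 85.3 and 84.7%. Pooled over all of Scn4b more than 1 kb after the start, Susceptible 6 and 7 read 62.0 and 60.6% against at most 52.6% in the others. A minimum of 5 CpGs and 100 calls per library applied to these blocks and tiles. With that minimum, 2.57% of 611433 tiles of 1 kb over the autosomes and X had the order.

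**Figure D2:**
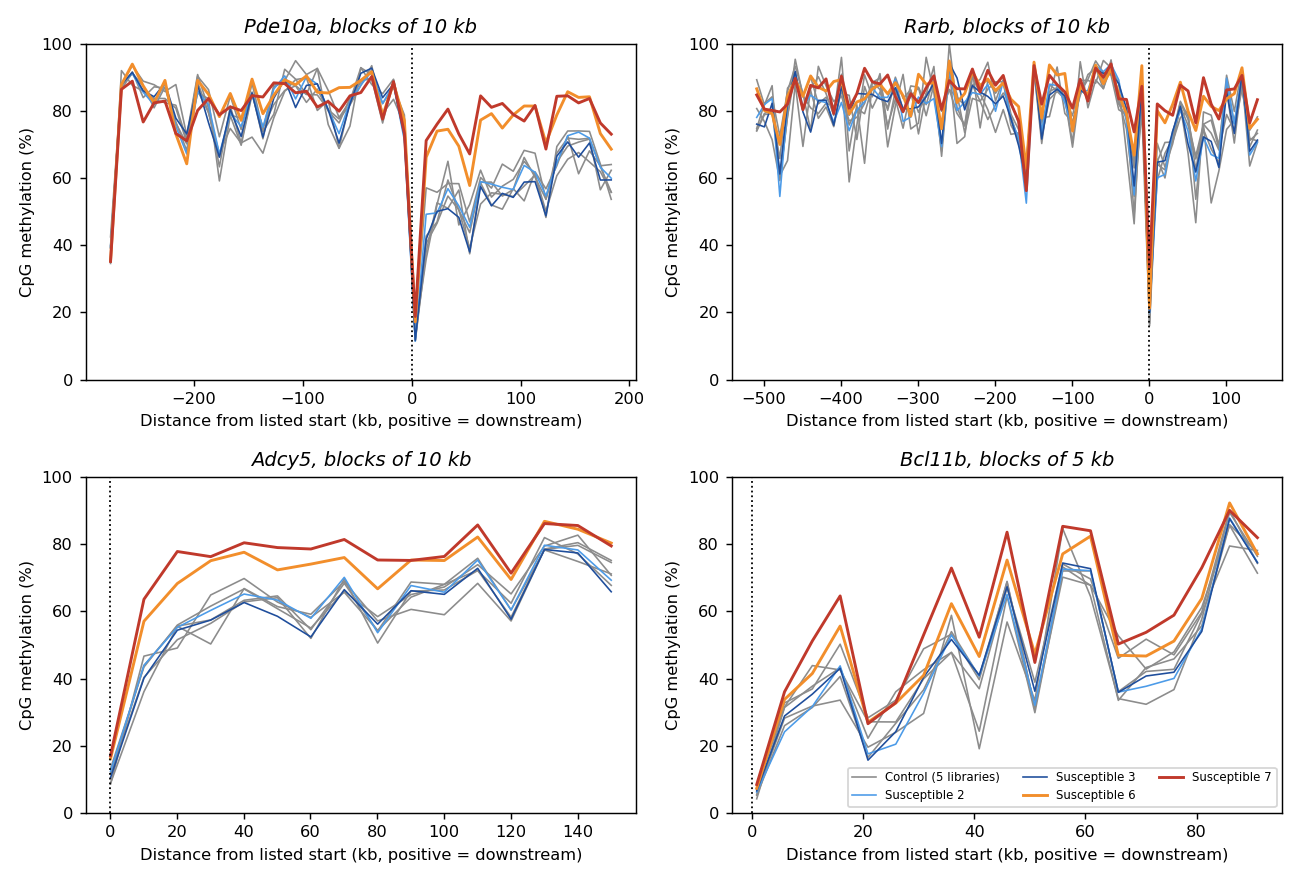
CpG methylation (percent) in consecutive blocks along Pde10a, Rarb, Adcy5 and Bcl11b against distance from the listed start (kb, dotted line at 0); each line is 1 library. Susceptible 6 (orange) and Susceptible 7 (red) run above the other 7 in 18 of 18 Pde10a blocks after the start and in 4 of 28 before it, and in 16 of 16 Adcy5 blocks.

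Sorted by place, the 17 tiles within 1 kb of a start deviated from the 9-library median by a median of 0.0228 points in Susceptible 6 and 0.36 in Susceptible 7. From 1 to 5 kb after the start (36 tiles) the values were 10.3 and 17.3 points, and in the 3 classes from 5 to 100 kb (115, 168 and 201 tiles) they were 9.01, 7.03 and 6.52 in Susceptible 6 and 13.4, 9.80 and 9.12 in Susceptible 7. Beyond 100 kb (134 tiles) they were 8.92 and 8.83. The 10 kb upstream of the genes gave 1.25 and -0.887, and the 10 kb downstream 2.07 and 0.779. These flanks lie outside the gene bounds, so those upstream of Pde10a and Rarb begin 277 and 507 kb before the listed start. The flanks differed between genes. Upstream of Gng7 the medians were 8.78 and 0 points, and upstream of Bcl11b 4.70 and 2.65, and the pooled levels there had Susceptible 6 and 7 on top in both genes (62.8 and 53.2% against at most 51.9%, and 47.2 and 46.4% against at most 44.95%). Upstream of the Pde10a bounds (8 tiles) the order was the opposite, with medians of -1.85 and -2.35 points. Pooled levels there were 57.8 and 54.8%, the lowest of the 9 libraries, against 63.98 to 75.0% in the others. Susceptible 7 was also the lowest upstream of Scn4b (60.4%). Downstream the medians were 6.68 and 11.8 points after Rgs9 and 5.31 and 5.32 points after Adcy5. No other library had a median of 2 points or more above in these classes of the gene bodies.

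The separation also went with the level of a tile. Place and level overlap, and they were not separated here. The tiles inside the bounds but before the start had a median level of 87.95%, and those within 1 kb of a start 1.70%. The classes from 1 kb after the start onward had median levels of 47.3 to 71.95%. Tiles with a median level of 20 to 80% (578 of 976) deviated by 9.52 points in Susceptible 6 and 12.96 in Susceptible 7, and 67.8% of them were highest in 1 of those libraries. Over all genes, tiles of this class deviated by 2.09 and -0.732 points, and 25.9% were highest in 1 of those libraries. The 363 tiles at 80% or more deviated by 1.22 and 0 points, with 23.7% highest in 1 of those libraries against 11.3% over all genes. Genes differed in this class. Pde10a (149 tiles) deviated by 0.0558 and -1.39 points, Rarb (100) by 0.404 and 0.362, and Actn2 (37) by 1.26 and 0. Rgs9 (29) deviated by 4.56 and 5.26 points and Adcy5 (25) by 3.40 and 5.28. The 35 tiles under 20% deviated by 0.664 and 0.521. In the middle class Susceptible 6 lay above the 9-library median in 500 tiles and Susceptible 7 in 510 of the 578.

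**Figure D3:**
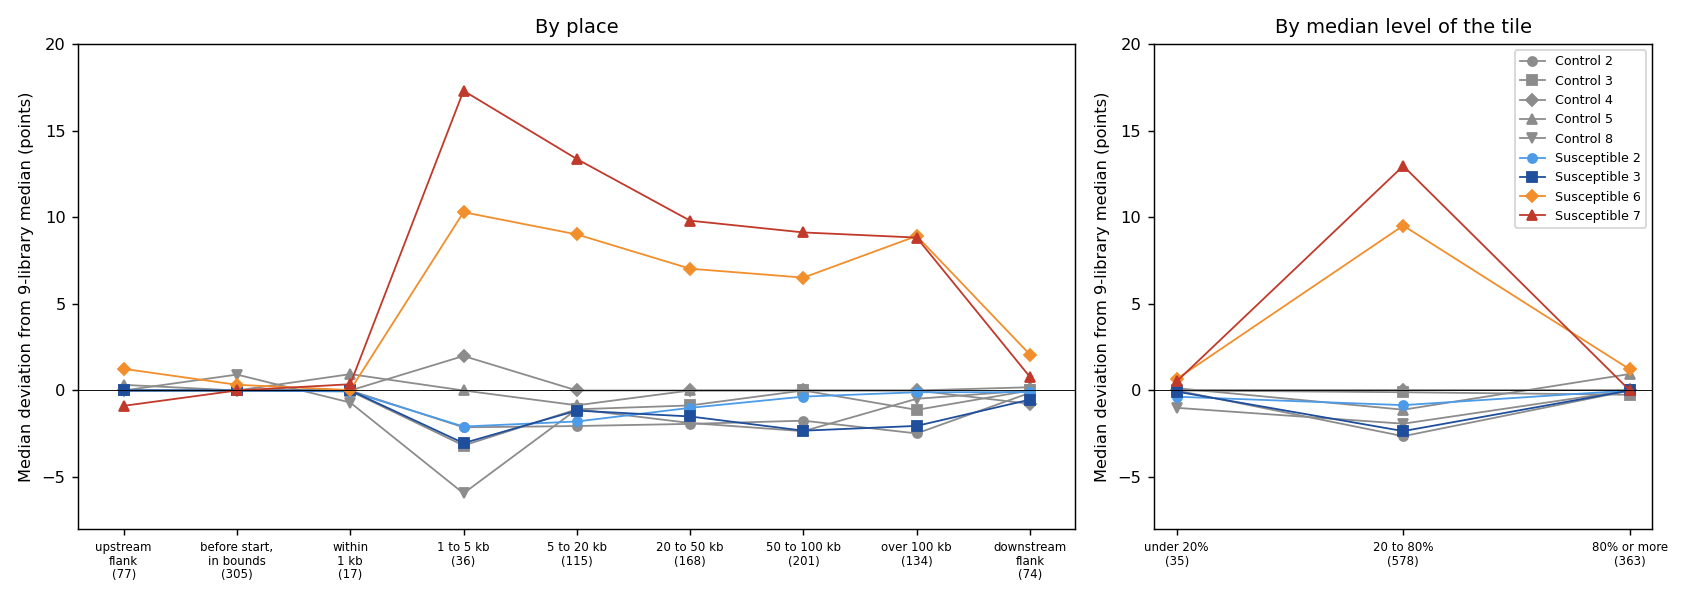
Median deviation of each library from the 9-library median (percentage points) over the 1-kb tiles of the 10 genes, by place relative to the listed start (left) and by the median level of the tile (right); numbers of tiles are in parentheses and lines join 1 library's points. Susceptible 6 and 7 leave the other libraries from 1 kb after the start onward, up to 10.3 and 17.3 points. They also do so in the tiles of 20 to 80%. The flanks are the 10 kb outside the gene bounds.

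Counted tile by tile, Susceptible 7 was the highest library in 291 of the 976 tiles (29.8%) and Susceptible 6 in 196 (20.1%), against 5.52% and 9.22% of 542562 tiles in all genes tested. Control 5 was the highest library in 18.6% of member tiles and 31.9% of all gene tiles. Susceptible 6 and 7 were together on top in 250 member tiles (25.6%), against 2.73% of gene tiles and 9.27% of 151 tiles in the 10-kb flanks. The share was largest in Ppp1r1b (6 of 10 tiles) and Adcy5 (58 of 143) and smallest in Rasd2 (1 of 12).

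**Figure D4:**
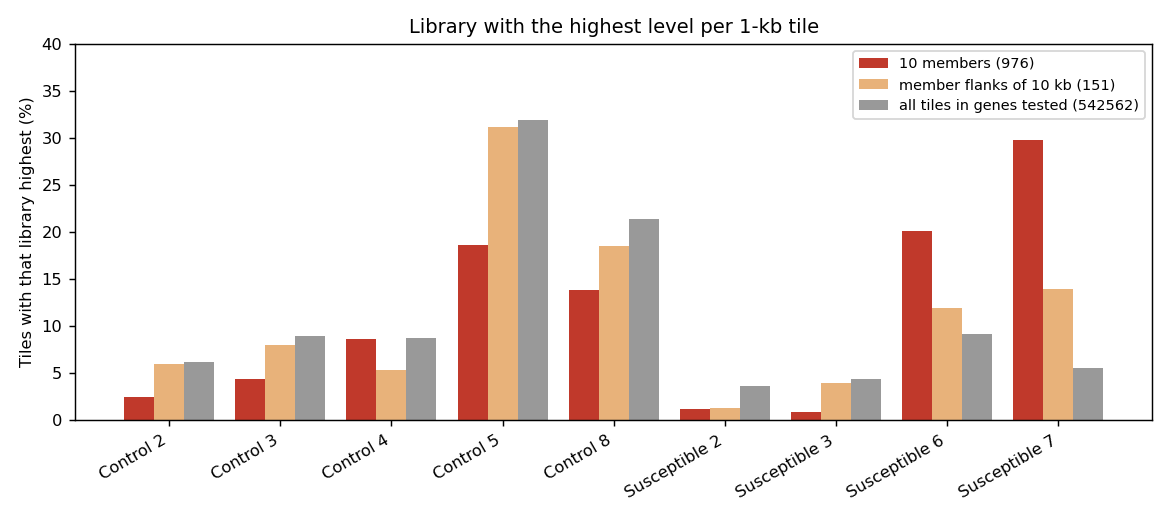
Percentage of 1-kb tiles in which each library had the highest level, for the 10 genes (976 tiles), their 10-kb flanks (151) and all genes tested (542562). Susceptible 6 and 7 reach 20.1% and 29.8% in the 10 genes, against 9.22% and 5.52% over all genes.

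The same tiles were high in Susceptible 6 and in Susceptible 7. After subtraction of the median of the remaining 7 libraries, their levels over the 976 member tiles had a Pearson r of 0.648, against 0.295 over all 1041809 tiles. The 10 genes were selected as high in a pair of Susceptible libraries, so the r over their tiles is a description. The other 35 pairs of libraries ran from -0.0533 to 0.547 over the member tiles, with a median of 0.157, and the next highest was Susceptible 2 with Susceptible 3. Over all tiles the other pairs ran from 0.0162 to 0.454, and 4 of them exceeded Susceptible 6 with 7, led by Susceptible 2 with Susceptible 3. These correlations are across tiles, which share libraries, depth and neighbourhood, and the subtracted median itself adds to every pair.

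Whether tiles of a gene move together was described by the correlation of each tile with the rest of its gene over libraries. Since Susceptible 6 and 7 stand apart, the value over the other 7 libraries is given first: the median r over the 976 tiles was 0.0951, against 0.0401 for the median gene. With all 9 libraries it was 0.437 with 787 of 976 tiles positive, against 0.0875 for the median of 11416 genes, so most of the common movement rests on Susceptible 6 and 7. Without Susceptible 6 alone it was 0.383 and without Susceptible 7 alone 0.347. By gene, the 9-library medians ran from 0.207 in Actn2 and 0.259 in Rarb to 0.569 in Adcy5 and 0.698 in Ppp1r1b. Across genes, the body level of each member followed the other 9 summed with r of 0.757 (Rasd2) to 0.994 (Rgs9) over 9 libraries and 0.407 (Actn2) to 0.932 (Rgs9) over the 7 without that pair.

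The tile of largest spread among the tiles with at least 5 CpGs and 100 calls shows how far single places parted. In Pde10a (chr17:8813001-8814000, 11.8 kb after the start) Control read 45.8, 50.9, 43.6, 0.901 and 55.7% and Susceptible 50.7, 52.1, 81.5 and 90.6%. In Rgs9 (chr11:109291001-109292000) Control read 33.3, 40.6, 60.1, 29.1 and 24.0% and Susceptible 47.0, 41.7, 76.7 and 87.6%. Susceptible 6 and 7 were on top in both, and the Pde10a tile held as few as 6 CpGs and 111 calls in a library. In Adcy5 (chr16:35167001-35168000) Control read 58.4, 55.0, 45.5, 17.7 and 35.3% and Susceptible 59.5, 57.9, 82.2 and 75.6%. In Actn2 (chr13:12308001-12309000) Control read 43.7, 48.5, 54.7, 45.0 and 36.8% and Susceptible 56.5, 46.6, 80.3 and 84.0%. Gng7 (chr10:81004001-81005000) had the same top pair, at 70.1 and 86.9%, above 41.6 to 56.6% in the rest.

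Other genes had a Control library on top or second at their most variable tile. Bcl11b (chr12:107992001-107993000) was highest in Control 8 at 75.3%, Rarb (chr14:16943001-16944000, 368 kb before the listed start) in Control 8 at 91.6%, and Rasd2 (chr8:75217001-75218000) in Control 5 at 90.7%. Ppp1r1b (chr11:98352001-98353000) and Scn4b (chr9:45141001-45142000) were highest in Susceptible 7, at 86.3 and 74.4%, with Control 4 second at 78.1 and 61.0%. At the fewest calls of any library, the widest Wilson half-width was 12.9 points over these tiles and the 5 of smallest p described next.

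No tile was called between the groups by the quasi-binomial fit over 1041809 tiles (0%), with 45605 at an unadjusted p under 0.05, and limma called 0 with 33856 at that level. Among the member tiles 138 of 976 (14.1%) passed the unadjusted threshold, against a background of 4.38%. Every Susceptible library exceeded every Control library in 12 of them (1.23%, background 0.598%) and lay below in 0 (background 0.96%). The members' selection fixes this direction. The 5 member tiles of smallest p lay in Gng7, Bcl11b, Rarb and Actn2, with adjusted p from 0.98 to 0.997.

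In those tiles Susceptible 2 and Susceptible 3 were also above Control. The Gng7 tile (chr10:81000001-81001000) lies next to the inner start printed above. It read 26.4, 17.9, 22.3, 17.1 and 19.9% in Control and 33.7, 35.9, 44.1 and 42.3% in Susceptible, 20.7 ± 3.77 (SD, n = 5) against 39.0 ± 4.98 (SD, n = 4). The Rarb tile (chr14:16570001-16571000, 4.98 kb after the start) read 50.5, 41.2, 48.7, 37.2 and 31.5% in Control and 75.0, 63.4, 72.6 and 82.9% in Susceptible, on as few as 3 CpGs in a library. The groups did not overlap in either, which the order of p-values selects for.

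Outside the 10 genes, a list of 30 other genes of striatal projection neurons was read in the same way. All 30 could be tested and 0 were called. Their median difference was 1.26 points, with 24 of 30 higher in Susceptible, against -0.441 over all genes, where 7429 of 19012 were higher. Susceptible 6 or 7 was highest in 17 of 30, and both were on top in 6, against 3304 and 493 of all 19012 genes. Summed over the list, Control read 64.8, 66.8, 66.8, 66.5 and 64.2% and Susceptible 65.9, 65.0, 70.1 and 69.0%. Susceptible 6 and 7 were the highest libraries, as in the 10 genes but with a smaller step. Here Susceptible 6 was above Susceptible 7, the reverse of their order in the 10 genes. Genes with more calls weigh more in such a sum.

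The largest positive differences in that list were in Pde1b, a calmodulin-dependent phosphodiesterase, in Kcnip2, a subunit of A-type potassium channels, and in Foxp1, a transcription factor of medium spiny neurons. Foxp1 followed the 10 genes most closely of these, at 72.8, 72.9, 74.6, 74.0 and 71.8% in Control and 73.3, 73.5, 81.3 and 81.5% in Susceptible. Pde1b was highest in Susceptible 6 at 51.4% but next in Control 4 at 49.7%, and its difference was 5.17 points. Kcnip2 read 61.3% in Susceptible 6, 60.9% in Susceptible 7 and 60.8% in Control 5, a difference of 4.31 points. The most negative differences were in the neuropeptide genes Penk and Tac1, at -5.46 and -1.47 points, and in the transcription factor Ebf1, at -1.23 points. Penk was highest in Control 3 at 49.2% and Tac1 in Control 4 at 30.5%, so identity genes of these neurons did not share 1 order. Those single libraries weigh heavily in the differences. The other Control libraries read 29.95 to 40.9% in Penk and 16.1 to 22.2% in Tac1, and the Susceptible libraries 29.8 to 35.5% and 17.4 to 24.75%.

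Markers of other cells are given beside all 19012 genes, which summed to 71.7 to 73.0% in Control, 72.8% in Susceptible 6 and 70.6% in Susceptible 7, the lowest library. Cortical projection neuron genes (9) summed to 63.7 to 67.9% in Control, 65.2% in Susceptible 6 and 63.6% in Susceptible 7. Striatal interneuron genes (10) summed to 41.4 to 44.2% in Control, 40.8% in Susceptible 6 and 38.5% in Susceptible 7, and neither library was the highest in any of the 10. The 13 oligodendrocyte genes (62.9 to 67.1% in Control), 11 astrocyte genes (72.7 to 75.9%), 11 microglia genes (80.7 to 83.2%) and 7 endothelial genes (78.3 to 82.7%) read 65.2, 75.5, 81.6 and 80.8% in Susceptible 6. In Susceptible 7 they read 61.4, 71.1, 79.5 and 76.9%. General neuron genes (12) read 62.6 to 64.5% in Control, 66.0% in Susceptible 6 and 62.2% in Susceptible 7. Susceptible 7 was below every Control library in all 7 of these lists, as over all genes. Susceptible 6 was above every Control library in the general neuron list. In that list Susceptible 6 or 7 was highest in 6 of 12 genes, against 3304 of all 19012. The same count was 2 of 9 cortical, 1 of 13 oligodendrocyte, 1 of 11 astrocyte, 0 of 11 microglia and 1 of 7 endothelial genes. Median differences between the groups were -0.24, -1.57, 0.124, -1.85, -1.15, -0.244 and 0.652 points in the order given, with 0 called in each list. The part of cell composition in the result was not tested.

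**Figure D5:**
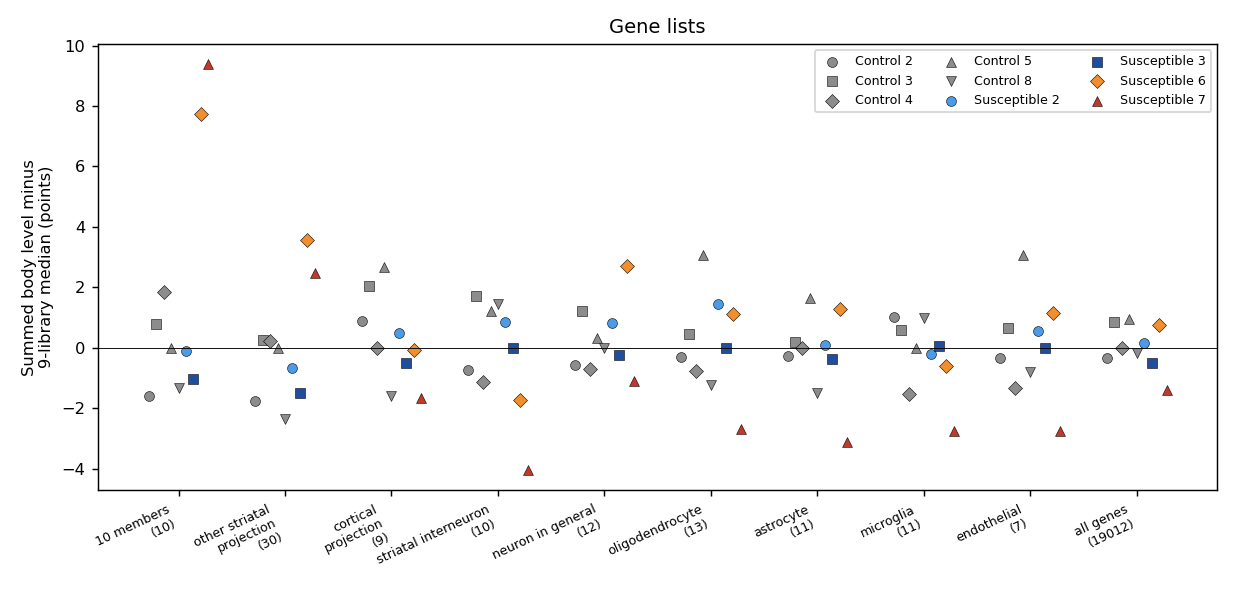
Summed gene body methylation of each list minus its 9-library median (percentage points), 1 point per library, with the number of genes tested in parentheses. Susceptible 6 and 7 stand apart upward in the 10 genes and, less, in the other striatal projection neuron genes. Susceptible 7 is the lowest library in all 7 lists of other cells and of neurons in general, and also over all genes (70.6%). Susceptible 6 is the highest library in neurons in general (66.0%).

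The genes outside all lists whose body levels were most like the mean of the 10, by Pearson r over the 9 libraries among 15110 genes, were Caln1 (0.984), Ndrg4 (0.98), Lrrtm3 (0.976), Mpped2 (0.972) and Trerf1 (0.969). Caln1 read 71.3 to 74.2% in Control, 73.4 and 73.1% in Susceptible 2 and 3, and 77.5 and 78.0% in Susceptible 6 and 7. Ndrg4 read 44.5 to 48.7% in Control and 48.3, 45.0, 54.1 and 54.5% in Susceptible. An r over 0.8 was found in 164 of these genes (1.09%). In an added comparison over the 7 libraries without Susceptible 6 and 7, the r of the 5 named genes was 0.879, 0.889, 0.703, 0.689 and 0.794 in the same order.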

How the data were processed

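The 9 libraries were whole-genome bisulfite libraries (Pico Methyl-seq kit, Zymo, per the labels' protocols), and the submitters' processing notes name Bismark, Bowtie, Picard and build mm10 without roles or versions. Per the file headers, each deposited file gives, for 1 cytosine per row, the count of calls and the percent read as C and as T. The deposited percent is rounded, so count times percent was rounded to the nearest whole number of methylated calls. Outside the deepest 1 in 1000 rows of each library it lay within 0.0071 of one. No row exceeded the tolerance of 0.05 plus 6.00e-05 per call, which at the deepest positions allows any value. Every row had at least 10 calls, a minimum applied before deposit. The deposited counts are whole numbers with no sign of scaling.

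Calls of both strands were summed over gene bounds from RefSeq (GRCm38.p6), over 1000 bp on each side of the start, and over tiles of 1000 bp (a minimum of 3 CpGs and 20 calls per library). All 317504 listed positions inside RefSeq promoter windows start a CG, so mm10 positions and GRCm38 sequences match. Starts are the outermost of the promoter table, or the CpG-richer gene end where it has none (4357 of 21631 genes, Ppp1r1b among them). Exons, introns and UTRs are not used here.

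Bodies, starts and tiles were tested with a quasi-binomial model, whose dispersion was moderated as in limma 3.58.1 (R 4.3.3) and kept at 1 or more, by F test with Benjamini-Hochberg adjustment over all features and a threshold of 0.05. The test was first run on simulated data. The labels do not say that libraries came from separate mice beyond their numbers, so p-values measure the spread between these samples. Members and lists were chosen with earlier results of these data known. Named tiles are, per gene, the one of largest SD, and the 5 of smallest p overall. Named list genes are those of the 3 largest and 3 smallest differences, taken with their sign. Like genes are the 5 of highest r (at least 50 CpGs, 1000 calls and a range of 3 points). Other windows, filters, tests, strands and left-out libraries were tried.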

Additional observations from a re-analysis of the deposited data

Results flagged for a closer look

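Within the groups, 40 sets of levels (10 bodies and 10 starts in each group) were examined for a library far from the rest, and 2 stood out, about as many as chance gives at 1 in 20. The Actn2 body in Control 8, at 76.55%, lay below the 79.9 to 81.1% of the other Control libraries. The Scn4b start in Control 3, at 6.13%, lay above the 2.80 to 3.50% of the other Control libraries.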

How the results depend on the processing

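The median gene body difference of the 10 genes, 4.04 points, stayed positive under every filter, strand and single left-out library tried, with 10 of 10 genes positive in each. The genes were selected as high in a pair of Susceptible libraries, and each of these settings keeps Susceptible 6 or 7. The positive sign thus follows largely from the selection. The median was 2.41 to 5.51 with 1 library left out, lowest without Susceptible 7 (2.41) and Susceptible 6 (2.87). On the forward and reverse strand it was 2.99 and 4.61. Leaving out Susceptible 6 and 7 together, an alternative chosen after seeing the data, reversed it to -0.14, and reversed Ppp1r1b to -1.38, Pde10a to -0.516, Bcl11b to -0.598, Rarb to -0.269, Scn4b to -1.65 and Actn2 to -0.00999 points. The median correlation of a tile with the rest of its gene, 0.437, was 0.596 without Control 5 and Control 8, 0.617 over tiles with a mean level of 20 to 80%, 0.0951 without Susceptible 6 and 7, and 0.347 to 0.504 with 1 library left out. No body or start was called under any alternative. No tile was called except 1 without Control 4, with an adjusted p of 0.0378, against 0.0763 to 1 without each of the other libraries. The libraries share the numbers 2 and 3 between groups, and their deviations correlated at -0.0188 to 0.0258. Whether they share more than a number was not tested. With the replicate block on logit levels 0 bodies, 0 starts and 0 tiles were called, as without it. Only numbers 2 and 3 occur in both groups, so Susceptible 6 and 7 add nothing to the group term of that fit. Its lack of calls therefore says little. The calls over the 10 genes differed by 21.4 to 40.3 per 1000000 with 1 library left out, with exact permutation p from 0.0571 to 0.286. Depth limits the short genes and tiles most, where the Wilson half-width reached 12.9 points.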
